A study of Mus musculus with 18 samples.

Results

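The genes described here are Cxcl5, Cxcl1, Cxcl2, Cxcl3 and Pf4 of the mouse, a set of 5 CXC chemokine genes picked by symbol and labelled as attractants of neutrophils. Of these 5, 4 had a row in the data used here, out of 14332 genes in either of 2 tables. Cxcl5, Cxcl1, Cxcl2 and Pf4 were in the glia table of 13452 genes, while Cxcl1, Cxcl2 and Pf4 were in the macrophage table of 11200 genes. Cxcl3 was not analysed here, nor was Cxcl5 in macrophages.

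Primary enteric glial cell (EGC) cultures were grown from the muscularis externa of the small bowel of C57BL/6 mice (genotype label Bl6). They received IL-1β at 10 ng/ml for 24 h or, as the control, vehicle by the study's account, with 3 libraries in each group. Bone-marrow-derived macrophages (BMDMs) were grown with the growth factor CSF-1 from mice that lack the IL-1 receptor (Il1R1-KO), so every macrophage group, the control included, carried the knockout. They received for 3 h the conditioned medium of IL-1β-treated EGCs (CM-IL1), that of vehicle-treated EGCs (CM-veh) or plain RPMI medium, with 4 libraries in each group. Mice were 8 to 16 weeks old by the study's methods. The study describes the EGC cultures as mostly glia, with low amounts of neurons and fibroblasts.

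CXC chemokines are small secreted proteins that bind to heparan sulphate on cell surfaces and guide leukocytes along the gradient this makes. Those with the residues Glu-Leu-Arg ahead of the CXC cysteines, known as ELR chemokines, act on the receptor CXCR2 and draw neutrophils out of the blood into inflamed tissue. CXCL1, CXCL2, CXCL3 and CXCL5 belong to them, and inflammatory cytokines such as IL-1 switch their genes on through NF-κB. PF4, or CXCL4, lacks these residues, is stored in the granules of platelets and is not a classical ligand of CXCR2, so the label of the set covers Pf4 by family and not by its known role.

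The 5 genes lie on the plus strand of chromosome 5 within 146.6 kb, in the order Cxcl5, Pf4, Cxcl3, Cxcl1 and Cxcl2. In the annotation GENCODE vM21 of GRCm38, the build named mm10 in the submitters' processing notes, Cxcl5 (ENSMUSG00000029371) spans chr5:90759360-90761624 and Pf4 (ENSMUSG00000029373) spans chr5:90772435-90773383. Cxcl1 (ENSMUSG00000029380) spans chr5:90891241-90893115 and Cxcl2 (ENSMUSG00000058427) spans chr5:90903871-90905938, with Cxcl3 (ENSMUSG00000029379) at chr5:90786103-90789600. Ppbp and Cxcl15, the other ELR chemokine genes of the cluster, sit between them. Each gene has up to 3 or 4 annotated exons.

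The promoter sequences are shown because Cxcl1 and Cxcl2 were the members higher in both kinds of culture, and because the same 10 bases of an NF-κB site stood in both. RefSeq windows on GRCm38.p6, from 250 bases before each gene's start to 50 after it, were found for 4 of the 5 members, and that of Cxcl5 is not shown. The pattern GGANTTTCC, a form of the NF-κB site in which N is any base, was searched on both strands and matched in 412 of 32851 RefSeq promoters of this length (1.25%). In Cxcl1, Cxcl2 and Cxcl3 the match with the base before it read GGGAATTTCC, and these 10 letters occurred in 29 of the 32851 promoters (0.0883%), 3 of them the promoters of these genes. The word was read from these 3 promoters, so its presence in them was set in advance and its rarity tests nothing. In the stretches below, all on the plus strand and read 5′ to 3′, the capitals mark this word.
Cxcl1, chr5:90891114-90891243: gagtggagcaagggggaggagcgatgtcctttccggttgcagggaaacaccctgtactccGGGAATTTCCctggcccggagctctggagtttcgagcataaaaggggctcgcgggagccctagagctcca
Cxcl2, chr5:90903742-90903871: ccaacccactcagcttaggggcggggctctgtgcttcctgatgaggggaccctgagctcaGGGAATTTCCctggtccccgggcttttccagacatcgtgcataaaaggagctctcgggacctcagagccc
Cxcl3, chr5:90785968-90786097: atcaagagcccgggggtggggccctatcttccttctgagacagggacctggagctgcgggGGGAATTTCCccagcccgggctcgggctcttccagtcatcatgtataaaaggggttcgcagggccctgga
The word began 71 bases before the start of Cxcl1, 97 before that of Cxcl2 and 73 before that of Cxcl3. With the stretches aligned on the word, 40.0% of the 130 positions were the same in Cxcl1 and Cxcl2, 43.8% in Cxcl3 and Cxcl1 and 30.8% in Cxcl3 and Cxcl2, the word itself included. The longest run shared by Cxcl1 and Cxcl2 had 20 bases and lay downstream of both starts, outside the printed stretches, while the runs shared with Cxcl3 had at most 13 bases.

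The window of Pf4 is given whole. It holds no match to this pattern, which is the case for most of the promoters searched. The window of Ppbp, which was 7.0-fold higher with CM-IL1 than with RPMI in macrophages, holds none either.
Pf4, chr5:90772185-90772484: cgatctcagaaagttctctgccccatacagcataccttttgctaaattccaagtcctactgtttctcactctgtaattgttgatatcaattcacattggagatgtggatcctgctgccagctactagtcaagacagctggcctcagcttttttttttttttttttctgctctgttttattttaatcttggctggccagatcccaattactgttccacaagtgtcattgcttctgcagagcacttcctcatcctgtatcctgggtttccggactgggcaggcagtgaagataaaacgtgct
Of the further words searched, TTGCNNNAA for C/EBP (in 9.56% of all promoters) had 1 match in Cxcl1 and none in Cxcl2, Cxcl3 or Pf4. TATAAA for the TATA box (13.6%) matched in Cxcl3, 30 bases before its start, and in none of Cxcl1, Cxcl2 and Pf4. TGANTCA for AP-1 (7.81%) and TTCNNNGAA for STAT (8.30%) matched in none of the windows of these 4 members. A match describes letters only and was not tested as a binding site.

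The values are the authors' least-squares mean of each group, a signal scaled so that each column adds up to between 996052 and 997403, and no value per library is held here. Depth, spread between libraries and the error of a mean are therefore unknown. The p-values of the authors' own test stand in the tables but were not used, so no difference below was set against replicate error or tested here. Each gene is given by its authors' mean in every group and by the ratio of 2 means, and a gene is called higher or lower past a ratio of 1.5, the fold used in the study's methods. No source used here says whether the 2 tables were normalized together, so levels are compared within one of them. In bulk RNA, fewer cells of a type and less RNA per cell cannot be told apart.

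Each culture carried markers of its label, and the EGC cultures also carried those of fibroblasts. All 6 glial markers had rows in the glia table, with summed means of 1256 with IL-1β and 1441 in controls, and none of them had one in the macrophage table. All 6 macrophage markers had rows in the BMDM table, summing to 16693 with CM-IL1, 18840 with CM-veh and 19085 with RPMI. In EGC cultures 3 of these 6 had rows, at 153.5 with IL-1β and 129.4 in controls. The 6 fibroblast markers, collagens among them, summed to 14409 with IL-1β and 17054 in control EGC cultures, far above the glial sums. Which cells of the EGC cultures held the chemokine transcripts was not tested. Il1r1, the gene knocked out in the macrophages, had authors' means of 9.57 with CM-IL1, 8.69 with CM-veh and 2.88 with RPMI. Wild-type macrophages are not among the groups used here, and a 3′ tag outside a deleted part would remain, so this does not check the genotype.

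IL-1β-treated EGCs had far higher means of the ELR chemokines than control EGCs, and Pf4 stood apart from them. Cxcl5, an attractant of neutrophils made mostly by epithelial and stromal cells, had an authors' mean of 1226 in IL-1β-treated EGCs, against 44.6 in controls. This 27.5-fold ratio (log2 4.78) was the second highest of 13445 genes kept, and it put Cxcl5 at place 54 of 13452 by level in IL-1β-treated EGCs, against place 3230 in controls. No other member reached this level in EGCs.

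Cxcl1, known in mice as KC, had an authors' mean of 131.3 in IL-1β-treated EGCs, against 15.8 in control EGCs, a ratio of 8.32 (log2 3.06) and the seventh highest. Cxcl1 was thus near the middle of all genes in controls, at place 6821 of 13452, and at place 1055 with IL-1β. Cxcl2, known as MIP-2, had an authors' mean of 54.7 in IL-1β-treated EGCs, against 0.239 in controls. The control value was the lowest of all 13452 genes in that column, so Cxcl2 passed the minimum mean of 1 through the IL-1β group only, and its ratio of 229 (log2 7.84), the highest of all genes, rests on a value near 0. With a pseudocount of 0.5 the ratio was 74.7, and with a pseudocount of 1 it was 44.9.

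Pf4 was low in both EGC groups, with an authors' mean of 3.03 in IL-1β-treated EGCs and 3.99 in controls. Its ratio of 0.758 (log2 −0.40) did not pass the limit, and 18.8% of genes had a lower mean with IL-1β and 18.7% in controls. Of the 4 members with a row, 3 were therefore higher with IL-1β and none lower, against 4.25% of all genes kept that were higher and 21.2% that were lower. Cxcl2, kept through the IL-1β group only, could enter this count only as higher. The members were also chosen with earlier results of these data known, so the count is descriptive and no test. The median log2 ratio was 3.92 over the 4 members and −0.14 over all genes.

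**Figure D1:**
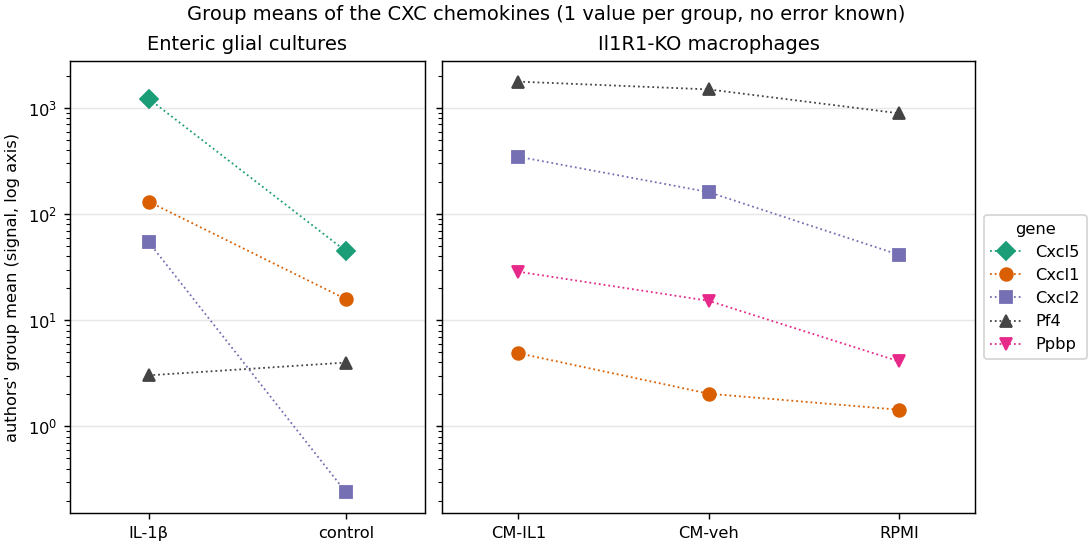
Authors' group means of the chemokines on a log axis, in enteric glial cultures with IL-1β and as controls (left) and in Il1R1-KO macrophages with CM-IL1, CM-veh and RPMI (right). Each point is 1 group mean with no known error, and the dotted lines only join a gene's points: in glia Cxcl5 is highest (1226 with IL-1β and 44.6 in controls) and Cxcl2 is at 54.7 with IL-1β and 0.239 in controls, while in macrophages Pf4 is highest (890.4 to 1772) and Cxcl1 lowest (1.43 to 4.89).

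By level, Cxcl5 led the ELR chemokines of EGCs in both groups. Cxcl5, Cxcl1 and Cxcl2 summed to 1412 in IL-1β-treated EGCs, against 60.7 in control EGCs, and Cxcl5 made up 86.8% of the sum with IL-1β and 73.6% in controls. The share of Cxcl2 was 3.87% with IL-1β, against 0.394% in controls, and that of Cxcl1 was 9.30% with IL-1β, against 26.0% in controls. Since a 3′ library takes its reads mostly from the end of a transcript, transcript length weighs little in this order, but no source used here tells whether the means were divided by length.

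Macrophages showed another order, with Pf4 and Cxcl2 high, Cxcl1 low and all 3 members highest with CM-IL1. Cxcl2 had an authors' mean of 347.2 with CM-IL1, 161.0 with CM-veh and 41.3 with RPMI. It was 8.41-fold higher with CM-IL1 than with RPMI (log2 3.07, place 46 of 11197 by ratio) and 3.90-fold higher with CM-veh than with RPMI (log2 1.96, place 75 of 11200). Between the conditioned media it was 2.16-fold higher with CM-IL1 than with CM-veh (log2 1.11, place 70 of 11184).

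Cxcl1 was low in these macrophages, with an authors' mean of 4.89 with CM-IL1, 2.03 with CM-veh and 1.43 with RPMI. Of all genes in the table, 26.0% had a lower mean with CM-IL1, 7.34% with CM-veh and 2.05% with RPMI. Cxcl1 was 3.41-fold higher with CM-IL1 than with RPMI (log2 1.77), while the 1.42-fold ratio of CM-veh over RPMI (log2 0.50) stayed under the limit. Its ratio between CM-IL1 and CM-veh, 2.41-fold (log2 1.27), was place 37 of 11184, although it fell below that of Cxcl2 with a pseudocount of 0.5 (2.13, against 2.15) or 1 (1.94, against 2.15).

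Pf4 was among the most abundant transcripts of macrophages in each medium, at place 36 of 11200 with CM-IL1, 44 with CM-veh and 80 with RPMI. Its authors' mean was 1772 with CM-IL1, 1496 with CM-veh and 890.4 with RPMI. The ratio was 1.99 for CM-IL1 over RPMI (log2 0.99) and 1.68 for CM-veh over RPMI (log2 0.75), and that of CM-IL1 over CM-veh, 1.18 (log2 0.24), did not pass the limit. Of 6 platelet and megakaryocyte markers, Ppbp had a row in the macrophage table and Gp9, Gp1bb, Itga2b, Gp5 and Tubb1 were not analysed here. The part of such cells in the Pf4 level was not tested.

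Ppbp, the ELR chemokine gene next to Pf4 and known as a platelet gene too, was analysed in macrophages only. Its authors' mean was 28.7 with CM-IL1, 15.2 with CM-veh and 4.09 with RPMI. The ratio was 7.0 for CM-IL1 over RPMI, 3.72 for CM-veh over RPMI and 1.88 for CM-IL1 over CM-veh, each past the limit.

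Against RPMI, 3 of 3 measured members were higher with CM-IL1, where 8.46% of all genes kept were higher, and 2 of 3 (Cxcl2 and Pf4) were higher with CM-veh, where 8% were. Between the conditioned media 2 of 3 (Cxcl1 and Cxcl2) were higher with CM-IL1 than with CM-veh, where 2.72% of all genes were. No member was lower in any of the 3 comparisons, in which 22.4%, 10.8% and 8.33% of all genes were. The median log2 ratio of the 3 members was 1.77, 0.75 and 1.11 in these comparisons, beside −0.19, −0.03 and −0.14 over all genes. The 3 comparisons share their groups with one another, so their ratios are not independent. Here too the members were chosen with earlier results of these data known, so the counts are descriptive.

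**Figure D2:**
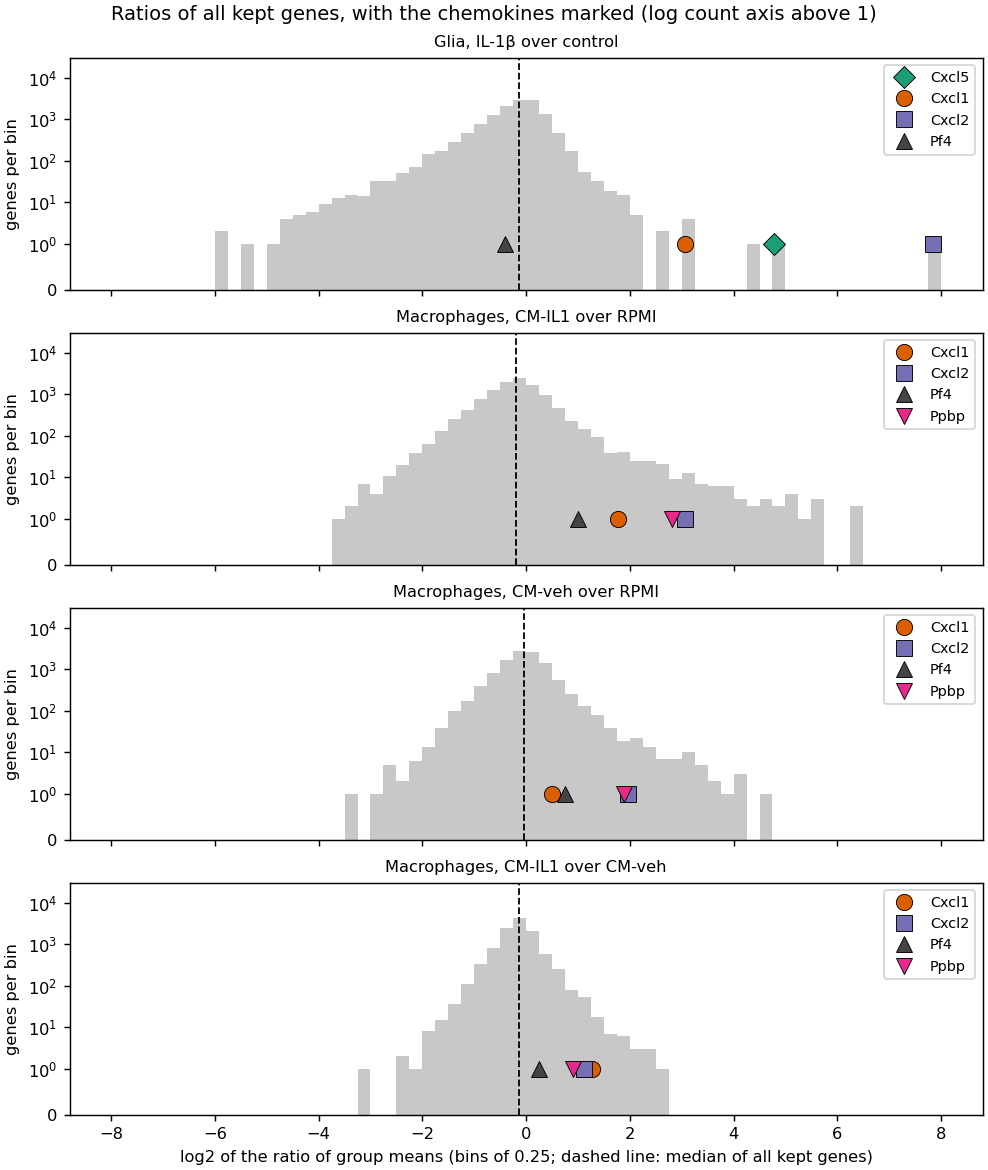
Number of genes (grey bars, log axis above 1) by log2 ratio of group means in bins of 0.25, for the glia comparison and the 3 macrophage comparisons, with the median of all kept genes (dashed) and the chemokines marked at their log2 ratio. In glia Cxcl2 (7.84) and Cxcl5 (4.78) lie at the far right end and Pf4 (−0.40) among the bulk of genes, while in macrophages every chemokine is to the right of the median and further genes lie beyond them.

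The steps between the media differed from gene to gene. The step from RPMI to CM-veh was 28.4% of the log2 ratio of CM-IL1 over RPMI for Cxcl1. It was 63.9% for Cxcl2, 75.4% for Pf4 and 67.6% for Ppbp. This step also holds the change from RPMI to the medium of the EGCs. The order CM-IL1 above CM-veh above RPMI, in which all of these genes lay, was found in 1592 of 11200 genes (14.2%). With both steps over 1.5 it was found in 132 genes (1.18%), and Cxcl2 and Ppbp were among these, whereas Cxcl1 missed it at the first step and Pf4 at the second.

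The Cxcl1 and Cxcl2 pair stood in opposite proportions in the EGC and macrophage groups. These groups also differ in stimulus, time, genotype and medium. Within each group, the mean of Cxcl2 divided by that of Cxcl1 was 0.416 in IL-1β-treated EGCs and 0.0151 in control EGCs. In macrophages this quotient was 71.0 with CM-IL1, 79.3 with CM-veh and 28.8 with RPMI. Cxcl1 was thus the more abundant transcript of the pair in both EGC groups and Cxcl2 in all 3 macrophage groups. The quotient of control EGCs rests on the Cxcl2 mean of 0.239, the lowest of its column. Those of macrophages rest on low Cxcl1 means, from 1.43 with RPMI to 4.89 with CM-IL1.

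Transcripts of the cluster are similar, and reads that occur in several genes can be assigned to either. Of the 50-base words in Cxcl2 transcripts, 5.84% (126 of 2159) also occurred in another gene, in each case Cxcl3. In the longest Cxcl2 transcript, which holds 108 of these words, they began between 1899 and 2006 bases from the 3′ end, and none lay in the last 500 bases, where 3′ reads are expected. Cxcl5 shared 0.693% of its words with other genes, and Cxcl1, Pf4 and Ppbp shared 0.

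Outside the chemokines, the annotation has 32 genes within 500 kb of a member, 19 of them protein-coding and members included. Among these, 5 non-members had rows for glia. Ereg, an EGF family ligand, was the only one of the 5 that was higher, beside 4.25% of all genes kept. Its authors' mean was 186.0 in IL-1β-treated EGCs and 28.1 in controls (6.63-fold). Areg, a close relative of Ereg, was the only one lower, at 4.84 with IL-1β and 9.92 in controls (0.488). Of all genes kept 21.2% were lower, so this count is near that share. Mthfd2l, the gene next to Cxcl2 and an enzyme of mitochondrial folate metabolism, had 11.3 with IL-1β and 7.71 in controls (1.46), under the limit. Ankrd17 (log2 −0.07) and Btc (log2 −0.22) were under it as well. In macrophages 4 non-members had rows, namely Ppbp, described above, Mthfd2l, Afp and Ankrd17. Mthfd2l had 5.95 with CM-IL1, 5.14 with CM-veh and 3.49 with RPMI. Its ratio of CM-IL1 over RPMI, 1.70, passed the limit, beside 8.46% of all genes kept that were higher. Afp was lower, at 2.60 with CM-IL1, 3.84 with CM-veh and 3.94 with RPMI (0.659 for CM-IL1 over RPMI), beside 22.4% of all genes kept that were lower. Ankrd17 stayed under the limit (1.33 for CM-IL1 over RPMI).

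**Figure D3:**
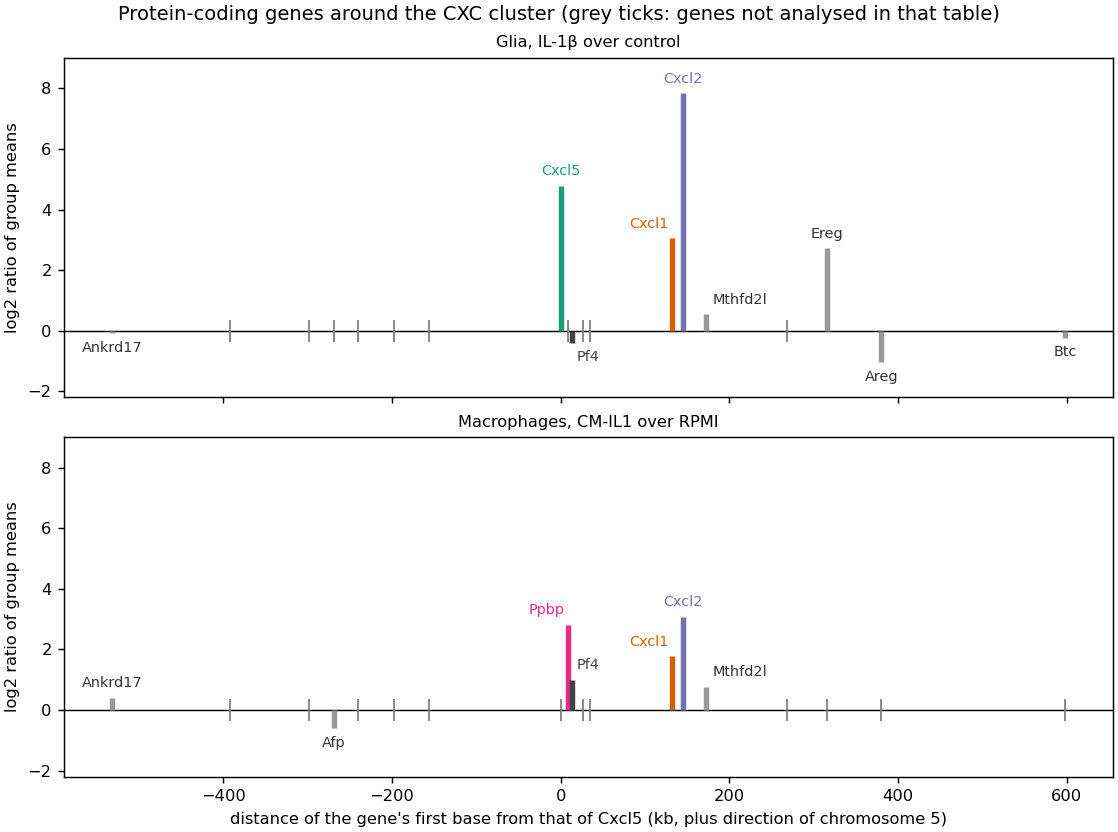
Log2 ratio of group means of the protein-coding genes around the chemokine cluster against the distance of their first base from that of Cxcl5 in kb, for IL-1β over control in glia (top) and CM-IL1 over RPMI in macrophages (bottom). Bars are genes with a row and grey ticks genes that were not analysed in that table. Cxcl5, Cxcl1, Cxcl2 and Ereg stand high in the glia panel while Pf4 between them lies at −0.40, and Ppbp, Pf4, Cxcl1 and Cxcl2 stand above 0 in the macrophage panel.

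The receptors through which these chemokines act were scarcely represented. Cxcr1 and Cxcr2, which encode the neutrophil receptors, were not analysed here in either cell type. Cxcr3, a receptor to which PF4 can bind, had means of 0.878 with CM-IL1, 0.982 with CM-veh and 2.77 with RPMI in macrophages, and was lower with both media than with RPMI. Cxcr4, the CXCL12 receptor, was also lower, at 4.83 with CM-IL1, 9.01 with CM-veh and 24.8 with RPMI. In EGCs Ackr1, the atypical receptor that binds ELR chemokines without signalling, had 22.2 with IL-1β and 21.5 in controls (1.03-fold). Ackr3, which scavenges CXCL12, was lower, with 53.4 with IL-1β and 102.2 in controls (0.522). It was the only one of 5 receptor and syndecan genes with a row in EGCs that passed the limit. This count is near the share of all genes kept that were lower in EGCs, 21.2%.

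Syndecans carry the heparan sulphate that holds chemokines at the cell surface. Sdc4 had an authors' mean of 429.2 with CM-IL1, 157.6 with CM-veh and 76.5 with RPMI in macrophages, and was thus 5.61-fold higher with CM-IL1 than with RPMI. Sdc1 had 69.6 with CM-IL1, 50.7 with CM-veh and 17.1 with RPMI, a ratio of 4.07 for CM-IL1 over RPMI. In EGCs the ratio of IL-1β over control was 1.06 for Sdc4 and 0.912 for Sdc1, both under the limit.

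Among the remaining CXC chemokines, Cxcl10, a CXCR3 ligand that attracts T cells, was nearest to the ELR genes in EGCs. Its authors' mean was 14.2 in IL-1β-treated EGCs and 0.678 in controls, a 20.9-fold ratio and the third highest of all genes, also against a low control value through which it did not pass the minimum mean of 1. With a pseudocount of 1 the ratio was 9.03. Cxcl16, a membrane-bound chemokine, had 74.8 with IL-1β and 21.5 in controls (3.47-fold), whereas Cxcl12, the CXCR4 ligand, had 164.4 with IL-1β and 141.5 in controls (1.16-fold). In macrophages Cxcl14 was higher with CM-IL1 (68.9) and CM-veh (63.7) than with RPMI (25.3), and Cxcl16 passed the limit in no comparison.

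Ccl7 and Ccl2, attractants of monocytes, had higher ratios of CM-IL1 over RPMI than any ELR gene in macrophages and lower ratios than the ELR genes in EGCs. Ccl7 had an authors' mean of 328.0 with CM-IL1, 154.2 with CM-veh and 8.76 with RPMI (37.4-fold for CM-IL1 over RPMI), against 8.41-fold for Cxcl2. In EGCs the ratio of Ccl7 was 2.96 and that of Ccl2 was 1.75, against 8.32 for Cxcl1. Of the CC chemokine list, 7 of 9 with a row were higher with CM-IL1 than with RPMI, beside 8.46% of all genes, and 2 of 7 were higher with IL-1β in EGCs, beside 4.25% of all genes. This list too was chosen with earlier results of these data known.

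**Figure D4:**
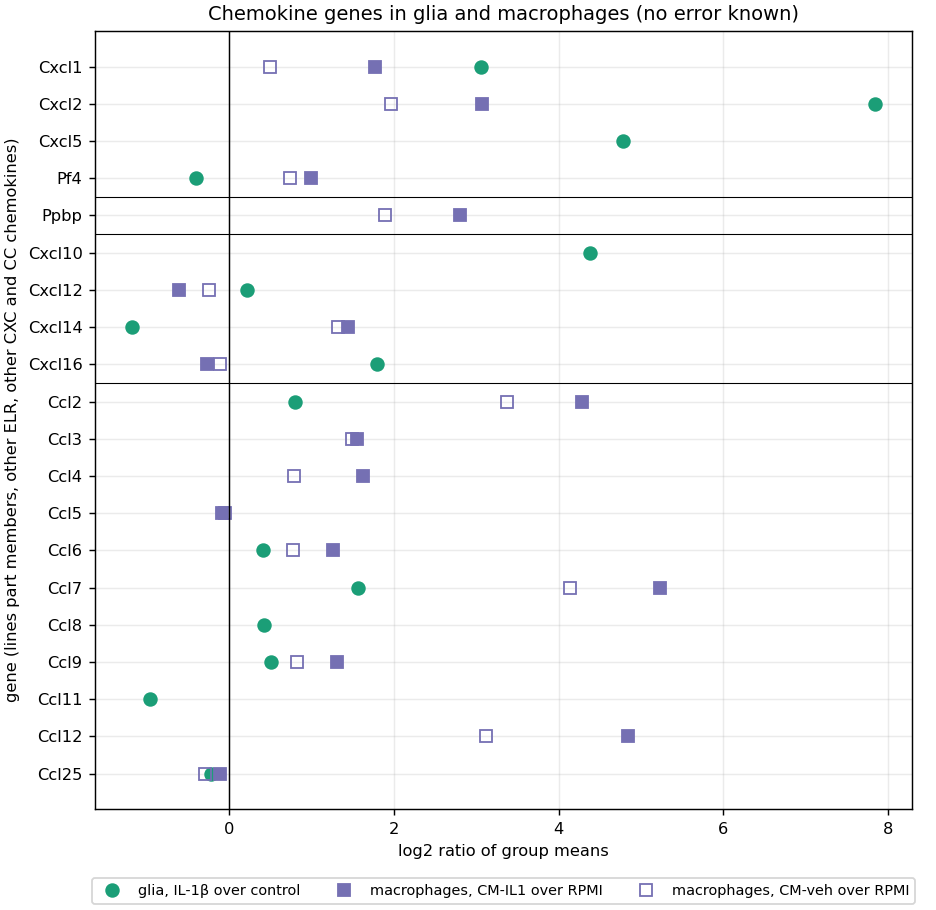
Log2 ratio of group means of the chemokine genes with a row, for IL-1β over control in glia (circles), CM-IL1 over RPMI (filled squares) and CM-veh over RPMI (open squares) in macrophages, with no error known. Cxcl2 (7.84), Cxcl5, Cxcl10 and Cxcl1 hold the highest values in glia, and Ccl7 (5.23) the highest in macrophages.

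Factors that read the NF-κB word and those that limit chemokine mRNA were taken from lists. Both lists were chosen with earlier results of these data known, so their counts are descriptive. Of 11 NF-κB subunits and inhibitors, all measured in EGCs, 6 were higher with IL-1β and none lower, beside 4.25% of all genes higher and 21.2% lower (median log2 0.85, beside −0.14 over all genes). Nfkbia, which encodes the inhibitor IκBα, had an authors' mean of 339.4 in IL-1β-treated EGCs and 170.7 in controls (1.99-fold), and Nfkbie had 12.5 with IL-1β and 3.97 in controls (3.15-fold). In macrophages 3 of the 11 were higher (Nfkbia, Tnfaip3 and Bcl3) and 3 lower (Rel, Relb and Nfkbie) with CM-IL1 than with RPMI, beside 8.46% of all genes higher and 22.4% lower. The count of lower ones is near that share. The pattern of 9 letters searched above matched in the promoters of 150 genes kept in EGCs, of which 15 were higher with IL-1β (10%), beside 3.51% of all kept genes with a RefSeq promoter, and 32 were lower (21.3%), beside 21.2% of all kept genes. The 15 were AW112010, Alpk1, Ampd3, Cxcl1, Cxcl2, Cxcl10, Icam1, Il6, Nfkb2, Nfkbia, Smad3, Sprr2b, Thg1l, Tnfaip2 and Tstd2. The median log2 ratio of the 150 genes was −0.12, beside −0.14 over all kept genes with a RefSeq promoter. The 10 letters read from Cxcl1 belonged to 11 genes kept in EGCs, of which 3 were higher, beside 3.51% of kept genes with a RefSeq promoter, and 2 lower. Nfkbia was the only one higher besides Cxcl1 and Cxcl2, from which the letters were taken, so this count tests nothing. For CM-IL1 over RPMI, 19 of 136 genes with the pattern were higher (14%), beside 7.93% of those with a RefSeq promoter, and 30 were lower (22.1%), beside 22.4% of all kept genes. In both cell types more genes with a match were lower than higher, as was so among all genes kept. The lower shares with a match are near those of all genes kept, which include genes without a RefSeq promoter. The lower share of genes with a RefSeq promoter alone was not computed.

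Chemokine mRNAs are short-lived because proteins such as tristetraprolin (Zfp36) and regnase-1 (Zc3h12a) promote their decay. Zfp36 had an authors' mean of 6.91 in IL-1β-treated EGCs and 16.3 in control EGCs (0.425), and 77.8 with CM-IL1, 70.2 with CM-veh and 43.1 with RPMI in macrophages (1.81-fold for CM-IL1 over RPMI). It was thus lower in one cell type and higher in the other. Zc3h12a was higher in both, at 25.3 with IL-1β and 10.7 in control EGCs (2.37-fold) and at 31.5 with CM-IL1 and 8.85 with RPMI (3.56-fold). Arid5a, which stabilizes inflammatory mRNAs, was 1.81-fold higher with IL-1β in EGCs and 3.82-fold higher with CM-IL1 than with RPMI in macrophages. Of the 10 genes of this list, 2 were higher and 1 lower in EGCs with IL-1β, beside 4.25% of all genes higher and 21.2% lower, and 3 were higher with CM-IL1 over RPMI, beside 8.46% of all genes.

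Other genes of neutrophil recruitment were mostly higher in IL-1β-treated EGCs too. Of 8 with a row, 7 were higher with IL-1β and none lower, beside 4.25% of all genes higher and 21.2% lower (median log2 0.93, beside −0.14 over all genes). This list was chosen with earlier results of these data known, so its counts are descriptive and no independent test. Icam1, the adhesion ligand of leukocyte integrins, had an authors' mean of 173.5 in IL-1β-treated EGCs and 45.3 in controls (3.83-fold), and Il6 had 13.4 with IL-1β and 5.58 in controls (2.40-fold). In macrophages 1 of 14 was higher with CM-IL1 than with RPMI (Il17ra, 3.43-fold) and 3 were lower, Icam1 among them (17.8 with CM-IL1 and 32.7 with RPMI, 0.545), beside 8.46% of all genes higher and 22.4% lower. Both counts are near these shares. Neutrophil markers had few rows, 2 of 7 in each table. In EGCs these were S100a8 and Camp, summing to 13.0 with IL-1β and 7.04 in controls, and in macrophages S100a8 and S100a9, summing to 89.7 with CM-IL1, 66.6 with CM-veh and 67.4 with RPMI. Their part in the chemokine values was not tested.

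Among genes with a row in both tables, the patterns nearest to each member were found by the distance over 3 log2 ratios with a pseudocount of 1 (IL-1β over control, CM-veh over RPMI and CM-IL1 over RPMI). Slc15a3, a lysosomal peptide and histidine transporter, was nearest to Cxcl1 (distance 0.90, against a median of 3.44 over 10050 genes) and to Cxcl2 (3.42, against a median of 6.75 over 10316 genes). Cxcl1 itself was the second nearest to Cxcl2, at 3.47, followed by the cystine transporter gene Slc7a11 (3.64), Olr1 (3.67) and Ets2 (4.14). After Slc15a3, the nearest to Cxcl1 were Hmga1b, Tnip1, Slc7a2 and Ripk2, at 1.68 to 1.78. The distances from Cxcl2 are set largely by its EGC ratio, which rests on the control value near 0. Nearest to Pf4 was Zfp667, at 0.086 with a median of 1.47. Of 10314 genes kept in both tables, 100 (0.97%) were higher with IL-1β in EGCs and also with CM-IL1 over RPMI in macrophages, out of 394 in EGCs and 789 in macrophages. Cxcl1 and Cxcl2 were among these 100, and Cxcl2, Slc15a3 and Cxcl1 had the highest EGC ratios of them.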

How the data were processed

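RNA of 6 EGC and 12 BMDM libraries was sequenced with a 3′ mRNA kit, single-end. The submitters' processing notes name cutadapt, STAR, Partek and mm10, without versions, and no source used here gives the normalization. The authors' deposited values are least-squares group means, a signal scaled so that columns add up to between 996052 and 997403. No source tells CPM from TPM here. The tables hold 0 columns of values per library, so depth and precision are unknown. Their p-values, adjusted p-values, ratios and folds are the authors' own comparisons and were not used, nor were 3 repeated copies of a mean. No source used here says whether libraries were separate cultures or animals.

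Ratios of means were computed with Python 3.11.15 and pandas 2.3.3 for genes with a mean of at least 1 in at least 1 of the groups compared, without a pseudocount, and tested on simulated data. Members and lists were chosen with earlier results of these data known. Named genes were the members, list genes with ratios over 2 or leading levels, neighbours within 500 kb and the 5 nearest patterns, and others named were chosen after their values were seen. Alternatives were pseudocounts, filters, a fold limit of 2 and 2 rescalings.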

Additional observations from a re-analysis of the deposited data

How the results depend on the processing

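Over all alternatives run, every ratio of the members and Ppbp kept its direction and its side of the limit in force, except that Pf4 with CM-IL1 and with CM-veh over RPMI was under a limit of 2 (as was Ppbp with CM-IL1 over CM-veh). The ratio in EGCs ranged from 26.9 to 32.3 for Cxcl5, from 7.88 to 9.79 for Cxcl1 and from 0.758 to 0.892 for Pf4, and that of Cxcl2 was 74.7 and 44.9 with pseudocounts of 0.5 and 1 and 269.5 with each column divided by its median. In macrophages the ratio of CM-IL1 over RPMI ranged from 8.24 to 9.67 for Cxcl2, from 2.42 to 3.92 for Cxcl1 and from 1.97 to 2.29 for Pf4. The count of members higher became 2 of 3 for CM-IL1 over RPMI, both at a limit of 2 (Pf4 lost) and with a mean of at least 10 (Cxcl1 filtered out). It became 1 for CM-veh over RPMI at a limit of 2, and 1 for CM-IL1 over CM-veh with a mean of at least 10, since Cxcl1 was again filtered out. Between CM-IL1 and CM-veh, the ratio of Cxcl1 was above that of Cxcl2 without a pseudocount and below it with one.

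Counts over all genes moved more. In EGCs, 379 were higher with a pseudocount of 1. With a mean of at least 10, 281 were higher and 1371 lower in EGCs, 1103 lower with CM-IL1 over RPMI, 539 higher and 456 lower with CM-veh over RPMI, and 162 higher and 232 lower with CM-IL1 over CM-veh. At a limit of 2 these were 136 and 1341 in EGCs, 451 and 943 with CM-IL1 over RPMI, 333 and 337 with CM-veh over RPMI, and 91 and 171 with CM-IL1 over CM-veh. With a pseudocount of 1, 473 were lower with CM-IL1 over CM-veh. With each column divided by its median, 1383 genes were higher and 1869 lower in EGCs, 1505 and 1558 with CM-IL1 over RPMI, and 523 and 515 with CM-IL1 over CM-veh, so that the higher share of the genes past the limit was 42.5%, 49.1% and 50.4%, beside 16.7%, 27.4% and 24.6% without it. The other 87 of 112 counts stayed within 1.5 times.

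No paired analysis was possible because the tables hold no values per library, and leaving out a library was not run for the same reason. Depth is unknown, and the lowest mean of a member, that of Cxcl2 in control EGCs, was 0.239.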
